A study of Homo sapiens with 179 samples.

Results

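The 30 genes described here encode the proteins that carry glucose into the cell, break it down to pyruvate, turn pyruvate into lactate or pass it to the mitochondrion, and run part of the pentose phosphate pathway. They were chosen by gene symbol, and all 30 are among the 19084 genes of the deposited tables, which give TPM (a level per transcript length, scaled to a fixed sum in each library) and expected read counts. The cells were of the human embryonic stem cell line H1, an established line, grown on Matrigel in E8, a defined medium. Total RNA was made into 6 libraries with the Illumina TruSeq kit, labelled H1p16 (n = 3) and H1p43 (n = 3) and sequenced 12 to a lane, and into many more with LM-Seq, a protocol that primes cDNA with random hexamers after oligo-dT selection of the mRNA. The LM-Seq libraries filled Lane 1 with 95 libraries, Lane 2 with 48, Lane 3 with 24 and Lane 4 with 6, and numbers in the titles recur between lanes. The labels do not spell out p16, p43 or the library numbers, and name no culture for any library, so each p-value here is set against a spread that could be technical alone. All groups share the cell line, the medium and the matrix, and no group was treated.

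Glycolysis splits glucose in a chain of steps that ends in pyruvate and a small net gain of ATP. Hexokinases trap glucose, phosphofructokinases commit it to the pathway, and the enzymes from GAPDH to enolase repay the ATP. Lactate dehydrogenase regenerates NAD+ by reducing pyruvate to lactate, which leaves through monocarboxylate carriers, while the pyruvate dehydrogenase complex makes acetyl-CoA for the tricarboxylic acid cycle and is shut by its kinases. The pentose phosphate pathway yields NADPH and ribose. Human pluripotent cells in culture are known for a high rate of glycolysis and lactate output, and many steps are served by isozymes from different genes.

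Summed expected counts per library were 23680503 to 30628645 in H1p16 and 29018106 to 35852646 in H1p43. They were 1040671 to 1539277 for Lane 1, 2005736 to 2739084 for Lane 2, 4028607 to 4918577 for Lane 3, and 15780078 to 16583048 for Lane 4. All 10 markers of pluripotent H1 cells were detected in every TruSeq and Lane 4 library, with POU5F1, the defining factor of the pluripotent state, at a mean of 3191 TPM in H1p16 and 2101 TPM in Lane 4. Of 8 endoderm and liver markers, SOX17 and TTR were at 0 in all TruSeq and all Lane 4 libraries. AFP of that list was at 0 in none of them and averaged 5.04 TPM in H1p16 and 2.55 TPM in H1p43. CXCR4 went the other way, with 0.58 and 1.74 TPM on average. The 8 endoderm genes summed to 6.05 to 7.1 TPM in H1p16, 4.88 to 5.82 in H1p43 and 1.84 to 5.19 in Lane 4. The part of these genes in the results was not tested. DCN and LUM of stroma were at 0 in all TruSeq and all Lane 4 libraries. The stroma list's THY1 (495 TPM) and TAGLN (212 TPM) were present in H1p16. Summed over its 10 genes, the stroma list had 771 to 809 TPM in H1p16, 794 to 824 TPM in H1p43 and 476 to 531 TPM in Lane 4, and its part in the results was not tested. No pair of libraries within a group agreed within counting noise, so none was taken as a duplicate and each was counted as its own sample. The ratio of observed to counting variance (chi-squared per degree of freedom) was 1.29 to 1.38 in H1p43 and 1.91 to 4.08 in H1p16. Libraries made separately from the same RNA can also exceed counting noise, so this check cannot show that they are independent. In bulk RNA, fewer cells of a type and less RNA per cell cannot be told apart.

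Per length, the 30 genes ranged in H1p16 from GAPDH at the top to the lactate exporter SLC16A3 at the bottom. Together they took 2.05% ± 0.01 (SD, n = 3) of all TPM in H1p16, 1.90% ± 0.00 (SD, n = 3) in H1p43 and 1.90% ± 0.02 (SD, n = 6) in Lane 4. The 5 genes of lower glycolysis, from GAPDH to enolase, held 1.11% of TPM in H1p16, against 0.347% for the 4 lactate genes, 0.277% for the 9 genes of upper glycolysis, 0.195% for the 3 pentose phosphate genes, 0.0838% for uptake and trapping and 0.0369% for the pyruvate dehydrogenase genes. In Lane 4 the lower glycolysis genes held 0.804% and the lactate genes 0.540%.

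GAPDH, the glyceraldehyde-3-phosphate dehydrogenase, ranked first in H1p16 at 7239.8 TPM ± 37.2 (SD, n = 3), followed by LDHB at 2586 TPM ± 64.6 and ENO1 at 2359 TPM ± 30.9, each apart from the next in every library. TKT, ALDOA and TPI1 followed between 1113 and 1127 TPM, with ranges that overlapped. At the low end stood the kinases PDK1 (19.2 TPM ± 0.28) and PDK3 (13.5 TPM ± 0.81), PFKFB4 (5.80 TPM ± 0.32) and the lactate exporter SLC16A3 (3.17 TPM ± 0.28). H1p43 had the same 3 genes on top, with GAPDH at 6296 TPM ± 15.9 (SD, n = 3). In Lane 4, GAPDH at 4215 TPM ± 131.8 (SD, n = 6) and LDHB at 4125 TPM ± 227 overlapped, and the neighbours from PDHB (716 TPM) down to PGD (571 TPM) overlapped pair by pair. PFKFB4 was last there at 2.67 TPM ± 1.07. Expected counts behind these levels in Lane 4 had a median of 49 for PFKFB4, against 38644 for GAPDH.

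**Figure D1:**
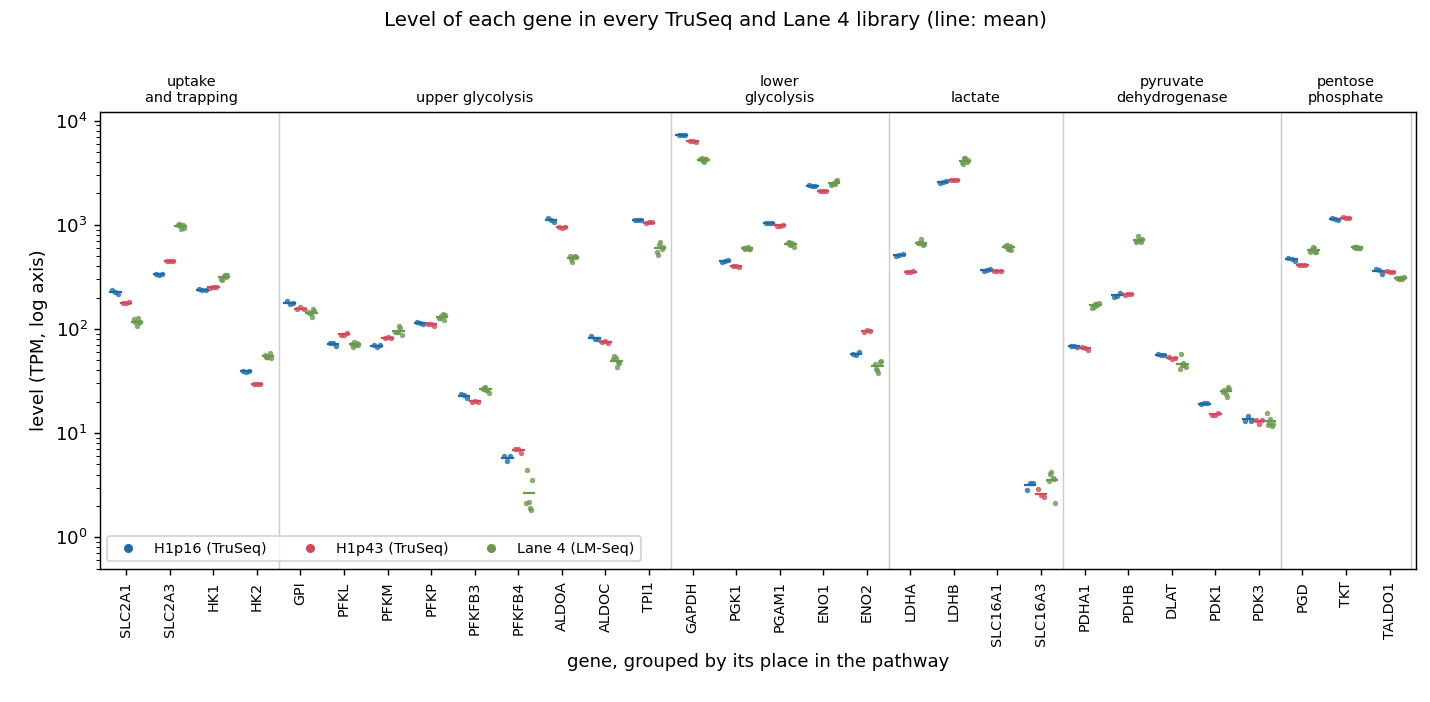
Level of each of the 30 genes in TPM (vertical, log axis) in the 3 H1p16, 3 H1p43 and 6 Lane 4 libraries, grouped by place in the pathway; points are libraries and short lines are means. GAPDH is highest in each group, SLC2A3 rises from 334 TPM in H1p16 to 974 TPM in Lane 4 and ALDOA falls from 1115 to 480.4 TPM.

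Near-identical copies share reads with some of these genes, so their split between copy and gene is uncertain. SLC2A14, the closest relative of SLC2A3, was given 7.45 TPM in H1p16 and 8.01 TPM in Lane 4, small beside SLC2A3. PGAM4, a copy of PGAM1, was given 7.26 TPM in H1p16 and 1.96 TPM in Lane 4. GAPDH, ENO1, LDHB and TPI1 also have processed copies in the genome whose reads were not examined here.

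The comparison of H1p43 with H1p16 asked how the same line differed between the labelled states when kit and multiplexing were shared. On the count scale most of the pathway was lower in H1p43, by small amounts: 23 of 30 genes fell, 5 rose and 2 did not pass the test. Lactate dehydrogenase A fell most, 1.55-fold, and the neuronal enolase ENO2 rose most, 1.53-fold. In counts the 4 lactate genes and the 3 pentose phosphate genes were all called lower, as were 4 of 5 pyruvate dehydrogenase genes, 4 of 5 lower glycolysis genes, 6 of 9 upper glycolysis genes and 2 of 4 genes of uptake and trapping. Among these LDHB, TKT and PDHB had the opposite sign in TPM. A gene was called at an adjusted p below 0.05 in edgeR's quasi-likelihood test with Benjamini-Hochberg adjustment over all genes. Of 14574 genes tested, 71.8% were called, 36.4% higher and 35.4% lower, beside 28 of the 30; of all calls about as many were higher as lower. The median log2 fold change was -0.19 over the 30 genes and 0.01 over all genes tested. At a fold of at least 1.5 only LDHA and ENO2 remained, 2 of 30 against 20.3% of all genes (14.2% higher and 6.07% lower).

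On the TPM scale the balance shifted. limma on log2(TPM + 1) called 22 of the 30 genes, 16 lower and 6 higher, while over all 13029 genes 71.7% were called, 46.2% higher and 25.5% lower. The medians there were -0.08 for the 30 genes and 0.09 for all genes. Of all calls, 50.7% were higher in the count fit and 64.4% on the TPM scale. HK1, LDHB, PDHB, TKT and PDK3 had the opposite sign on the 2 scales. TPM ranges of H1p16 and H1p43 did not overlap for 25 of the 30 genes, 17 lower and 8 higher, against 73.7% of all genes, 25.9% lower and 47.9% higher. The expression of cell-state markers differed alongside, in the count fit that called 36.4% of all genes higher and 35.4% lower. Of 10 pluripotent cell markers 9 fell and none rose, their summed level going from 8659 to 8939 TPM in H1p16 to 7477 to 7504 TPM in H1p43. DNMT3B, a de novo DNA methyltransferase of these cells, went from 1460 to 773 TPM on average. Of 6 neuroectoderm markers tested, 5 rose, with summed levels of 280.0 to 297 TPM in H1p16 and 353 to 357 TPM in H1p43. The defining genes PAX6 and SOX1 stayed at 0.32 TPM or less on average. The mesoderm list summed to 77.9 to 80.1 TPM in H1p16 and 45.6 to 46.02 TPM in H1p43, with 2 of 3 tested markers lower and 1 higher; its KDR, a receptor of vascular endothelial growth factor, fell from 74.2 ± 1.79 to 40.7 ± 0.30 TPM (-0.98 ± 0.03, adjusted p = 1.46e-15, edgeR). The part of these markers in the glycolytic differences was not tested.

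**Figure D2:**
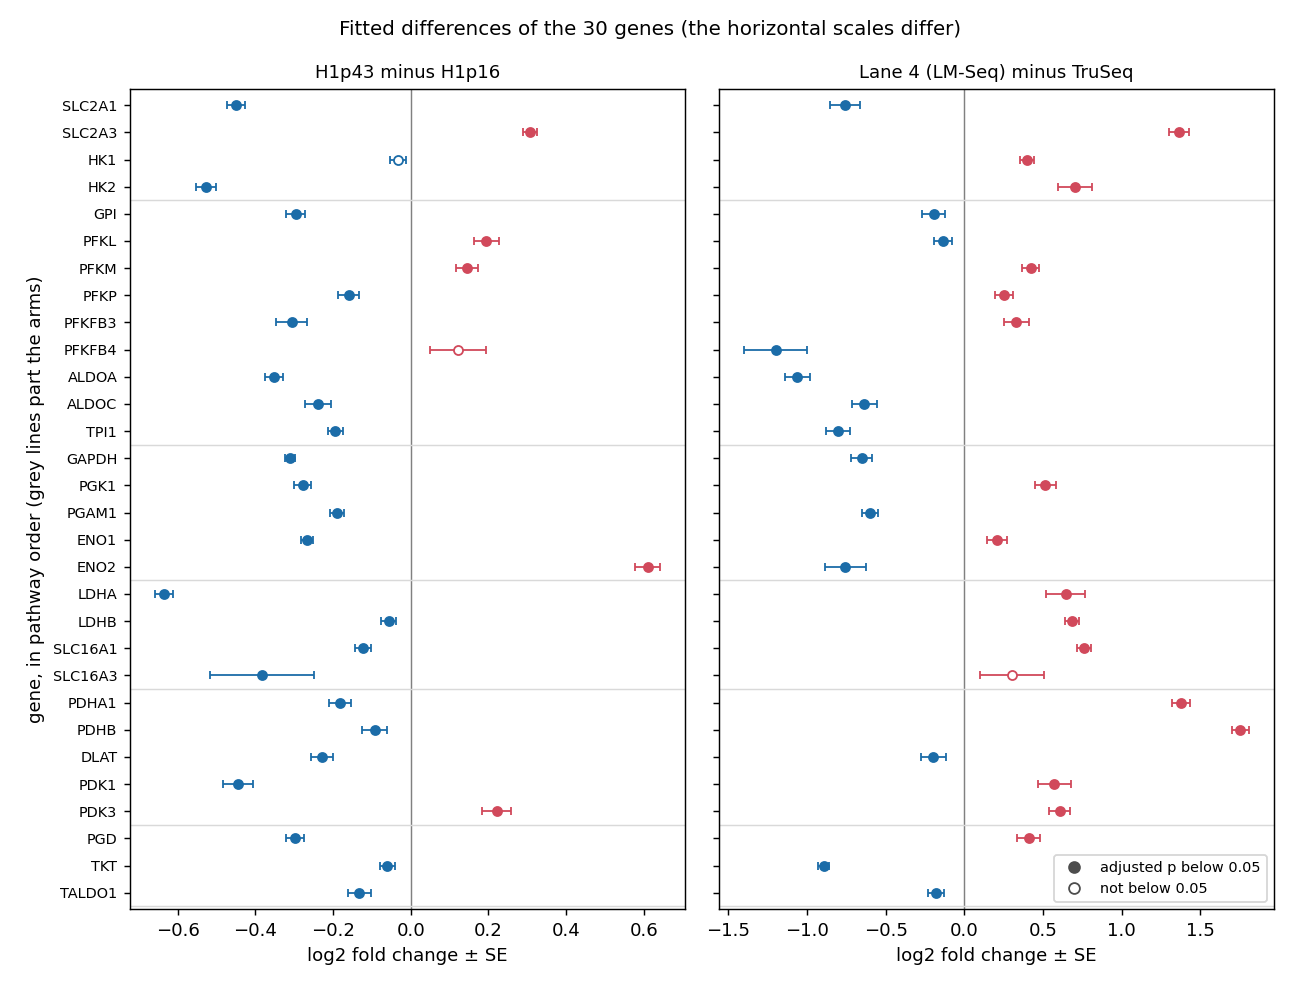
Log2 fold changes with standard errors of the 30 genes, in pathway order, for H1p43 minus H1p16 (left) and Lane 4 minus TruSeq (right); filled points have an adjusted p below 0.05, blue is lower and red is higher. On the left most points lie between -0.6 and 0, with ENO2 at 0.61 and LDHA at -0.64 at the ends; on the right the scale is wider and PDHB reaches 1.76.

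Glucose uptake showed opposite changes of its carriers. SLC2A1 (GLUT1), the widespread basal glucose transporter, measured 234.1, 228 and 219 TPM in the 3 H1p16 libraries and 178, 179 and 181 TPM in the 3 H1p43 libraries. SLC2A3 (GLUT3), a carrier of high affinity typical of neurons, measured 333, 330.1 and 338 TPM in H1p16 and 446, 446 and 445 TPM in H1p43. All H1p43 libraries thus lay below H1p16 for SLC2A1 and above it for SLC2A3. The log2 fold change was -0.45 ± 0.02 for SLC2A1 (SE, adjusted p = 1.31e-11, edgeR). For SLC2A3 it was 0.31 ± 0.02 (adjusted p = 5.50e-11, edgeR).

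Of the hexokinases, HK2, the inducible form, fell, with 39.8, 38.8 and 39.4 TPM in H1p16 and 29.4, 29.6 and 29.4 TPM in H1p43 (log2 fold change -0.53 ± 0.03, adjusted p = 6.19e-12, edgeR). HK1, the housekeeping form, was not called in counts (-0.03 ± 0.02, adjusted p = 0.154, edgeR), although its TPM of 242, 239 and 235 in H1p16 lay below the 249, 251 and 254 of H1p43. On the TPM scale HK1 was called higher, at 0.08 ± 0.03 (adjusted p = 0.0451, limma), and without H1p16 replicate 3 the count fit called it lower (-0.05 ± 0.02, adjusted p = 0.0226, edgeR).

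The phosphofructokinase subunits also split. PFKL, the liver-type subunit, measured 73.9, 73.3 and 68.04 TPM in H1p16 and 87.6, 87.4 and 90.5 TPM in H1p43. PFKM, the muscle-type subunit, measured 70.4, 66.9 and 70.2 TPM and then 81.8, 83.2 and 81.6 TPM. PFKP, the platelet-type subunit, was the most abundant at 116.1, 114.5 and 112.6 TPM and then 111.8, 111.95 and 107.7 TPM. PFKL and PFKM rose without overlap, by 0.19 ± 0.03 and 0.14 ± 0.03 on the log2 scale, while PFKP fell by 0.16 ± 0.03 (adjusted p = 3.10e-05, 0.000198 and 3.71e-05 in edgeR). The fall of PFKP was not called on the TPM scale (-0.05 ± 0.03, adjusted p = 0.184, limma).

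PFKFB3 and PFKFB4 make and degrade fructose 2,6-bisphosphate, the strongest activator of phosphofructokinase. PFKFB3 fell by 0.31 ± 0.04 on the log2 scale. PFKFB4 was low throughout, at 5.99, 5.43 and 5.99 TPM in H1p16 and 7.04, 6.96 and 6.42 TPM in H1p43; its log2 fold change of 0.12 ± 0.07 did not pass the test in edgeR (adjusted p = 0.136), but did in limma on log2(TPM + 1) (0.20 ± 0.05, adjusted p = 0.00965). ALDOA, the main aldolase, fell most of the upper glycolysis genes, from 1161, 1109 and 1074 TPM to 954, 931 and 941 TPM (-0.35 ± 0.02, adjusted p = 1.95e-10, edgeR). Its relative ALDOC, the isomerase GPI and the triose phosphate isomerase TPI1 fell by 0.24 ± 0.03, 0.30 ± 0.03 and 0.19 ± 0.02 on the log2 scale.

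In lower glycolysis the abundant enzymes fell together. GAPDH, phosphoglycerate kinase PGK1 and phosphoglycerate mutase PGAM1 fell by 0.31 ± 0.01, 0.28 ± 0.02 and 0.19 ± 0.02 on the log2 scale, PGAM1 from 1048, 1028 and 1045 TPM to 979, 982 and 991 TPM. ENO1, the general enolase, fell from 2394, 2351 and 2333 TPM to 2131, 2114 and 2099 TPM (-0.27 ± 0.02, adjusted p = 3.20e-11, edgeR). ENO2, the enolase named for neurons, rose from 57.9, 56.1 and 59.4 TPM to 92.95, 97.4 and 95.3 TPM (0.61 ± 0.03, adjusted p = 1.13e-11, edgeR). The H1p43 values of the enolases thus lay on opposite sides of H1p16, each without overlap.

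Of the lactate dehydrogenases, the A form fell and the B form had opposite signs in counts and TPM. LDHA, the form that favours lactate production in textbook accounts, fell from 499.5, 515 and 522 TPM in H1p16 to 352, 353 and 361 TPM in H1p43 (-0.64 ± 0.02, adjusted p = 6.21e-14, edgeR). LDHB, the heart form, had slightly higher TPM in H1p43 without overlap, with 2526, 2576 and 2654 TPM in H1p16 and 2678, 2667 and 2702 TPM in H1p43. The count fit placed LDHB lower (-0.06 ± 0.02, adjusted p = 0.0115, edgeR) and the TPM scale higher without a call (0.05 ± 0.03, adjusted p = 0.157, limma). The carriers SLC16A1 (MCT1) and SLC16A3 (MCT4) fell by 0.12 ± 0.02 and 0.38 ± 0.13 on the log2 scale of counts, with TPM ranges that overlapped; the fall of SLC16A1 was not called on the TPM scale (-0.01 ± 0.03, adjusted p = 0.711, limma), and that of SLC16A3 was not called in DESeq2 (-0.39 ± 0.20, adjusted p = 0.0775) or without H1p16 replicate 2 or H1p43 replicate 3 (adjusted p = 0.0582 and 0.0708, edgeR).

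Promoters of 4 genes are shown, picked by direction in H1p43: LDHA, HK2 and PGK1, textbook targets of hypoxia-inducible factor, fell and ENO2 rose. Each line gives the 250 bases before the RefSeq start of the gene in GRCh38.p14, written along the gene's strand. Capitals mark ACGTG and GCGTG, the core letters of the factor's response element, searched on both strands (CACGT and CACGC on the other); CACGTG holds a match on each strand. They lie at chr11:18394313-18394562 (+), chr2:74833877-74834126 (+), chrX:78103998-78104247 (+) and chr12:6914330-6914579 (+), all upstream of the first exon.
LDHA: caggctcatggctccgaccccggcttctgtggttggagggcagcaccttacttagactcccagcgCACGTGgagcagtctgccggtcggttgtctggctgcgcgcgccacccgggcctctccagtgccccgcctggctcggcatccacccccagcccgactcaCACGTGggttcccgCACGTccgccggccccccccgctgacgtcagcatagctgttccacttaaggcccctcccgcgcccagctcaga
HK2: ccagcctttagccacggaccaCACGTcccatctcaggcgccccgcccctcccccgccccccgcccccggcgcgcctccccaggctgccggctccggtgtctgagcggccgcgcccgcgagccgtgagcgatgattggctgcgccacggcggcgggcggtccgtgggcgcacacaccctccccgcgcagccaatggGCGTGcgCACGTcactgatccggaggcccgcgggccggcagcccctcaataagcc
PGK1: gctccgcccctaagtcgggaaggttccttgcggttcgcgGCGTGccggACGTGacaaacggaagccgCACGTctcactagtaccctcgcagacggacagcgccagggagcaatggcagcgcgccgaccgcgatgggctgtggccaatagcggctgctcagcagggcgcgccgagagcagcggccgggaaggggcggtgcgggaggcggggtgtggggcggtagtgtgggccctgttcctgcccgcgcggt
ENO2: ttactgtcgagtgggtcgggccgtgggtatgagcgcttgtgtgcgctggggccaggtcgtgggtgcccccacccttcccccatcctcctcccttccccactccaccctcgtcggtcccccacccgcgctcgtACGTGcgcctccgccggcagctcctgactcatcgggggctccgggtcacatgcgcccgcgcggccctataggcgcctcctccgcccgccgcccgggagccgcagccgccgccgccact

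The LDHA window held 5 matches, those of HK2 and PGK1 held 3 each and that of ENO2 held 1. Of the 28 genes with a promoter in the table, 17 held at least 1 match (60.7%), against 55.95% of the 10688 tested genes with a promoter and 43.1% of all 27305 promoters of that length. A match was present for 13 of 22 genes called lower in counts and 3 of 4 called higher in counts (LDHB, TKT, PDHB and PDK3 counted by that scale). PDK1 and SLC2A1, which fell, had none in their listed windows, and PDK3, called higher in counts, held 2. The part of these matches in the changes was not tested. A match of letters describes the sequence and does not show binding.

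Among the pyruvate dehydrogenase genes the inhibitory kinase PDK1 fell most. PDK1 fell from 18.9, 19.4 and 19.3 TPM to 15, 15.01 and 15.7 TPM (-0.45 ± 0.04, adjusted p = 1.18e-08, edgeR). PDK3 was higher in counts (0.22 ± 0.04, adjusted p = 3.51e-05, edgeR) but not in TPM, with 13.1, 14.4 and 13 TPM in H1p16 and 13.4, 12.2 and 13.4 TPM in H1p43 (-0.05 ± 0.05, adjusted p = 0.427, limma). PDHB, the beta subunit of the first enzyme, measured 205, 208 and 223 TPM and then 209.9, 215 and 218 TPM, with overlap. Its fall in counts (-0.09 ± 0.03, adjusted p = 0.0128, edgeR) was not called without H1p43 replicate 1 (adjusted p = 0.0720). PDHA1, the catalytic alpha subunit, and DLAT, the acetyltransferase core, fell by 0.18 ± 0.03 and 0.23 ± 0.03 on the log2 scale of counts; PDHA1 was not called on the TPM scale (adjusted p = 0.0749, limma).

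In the pentose phosphate pathway PGD, which yields NADPH, fell from 482, 469.7 and 453 TPM to 408, 414 and 409.9 TPM (-0.30 ± 0.02, adjusted p = 1.75e-09, edgeR). TKT, a transketolase of the non-oxidative arm, measured 1151, 1132 and 1098 TPM in H1p16 and 1186, 1160.1 and 1164 TPM in H1p43, so that TPM lay higher and the count fit lower (-0.06 ± 0.02, adjusted p = 0.00744, edgeR; 0.05 ± 0.03 on log2(TPM + 1), adjusted p = 0.154, limma). TALDO1, the transaldolase, fell by 0.13 ± 0.03 in counts and was not called on the TPM scale (adjusted p = 0.659, limma).

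LM-Seq Lane 4 was set beside all 6 TruSeq libraries to ask how the measured pathway differed between the protocols. The picture was mixed: 16 of 30 genes were higher in Lane 4, 13 were lower and SLC16A3 did not pass the test. The catalytic subunits of pyruvate dehydrogenase led the increases, PDHB 3.38-fold and PDHA1 2.599-fold, followed by SLC2A3 at 2.58-fold. PFKFB4 (2.30-fold) and ALDOA (2.09-fold) led the decreases. Higher were 3 of 4 genes of uptake and trapping, 3 of 4 lactate genes and 4 of 5 pyruvate dehydrogenase genes, while 6 of 9 upper glycolysis genes, 3 of 5 lower glycolysis genes and 2 of 3 pentose phosphate genes were lower. Over all 13827 genes tested with edgeR 71.3% were called, 34.3% higher and 36.9% lower. At 1.5-fold or more, 8 genes were higher and 9 lower, 17 of 30 against 47.4% of all genes (20.9% higher, 26.5% lower). The median log2 fold change was 0.28 for the 30 genes and -0.06 for all. TPM ranges did not overlap for 25 genes, 15 higher and 10 lower, against 53.9% of all genes (26.6% and 27.2%). Against H1p16 alone 27 genes were called, 15 higher and 12 lower (66.8% of all genes, 33.4% higher and 33.4% lower), and against H1p43 alone 27, 16 higher and 11 lower (73.2%, 35.5% and 37.8%). On the TPM scale limma called 27 (74.7% of all genes). Cell-state markers differed in the same comparison: 7 of 10 pluripotent cell markers were higher in Lane 4 and 2 lower, with summed levels of 7477 to 8939 TPM in TruSeq and 10315 to 10760 TPM in Lane 4. Of 6 neuroectoderm markers tested 3 were lower and 1 higher (380.4 to 403 TPM summed in Lane 4), and of 3 mesoderm markers 2 were higher and 1 lower (83.98 to 95.2 TPM summed in Lane 4). The part of these markers in the differences was not tested. Protocol, RNA sample, depth and lane differ together between these groups and cannot be told apart.

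Differences between the protocols followed transcript base composition across the transcriptome. Over 13512 genes with a transcript in the reference annotation, Spearman's rho between GC content and log2 fold change was -0.57, and 0.29 for transcript length; the points are genes from the same libraries. Median log2 fold changes in 5 equal bins of genes, from the lowest to the highest GC content, were 0.50, 0.30, 0.02, -0.44 and -0.85. Medians of the 30 genes in the same bins were 0.57, 0.68, 0.42, -0.41 and -0.14 (1, 9, 3, 14 and 3 genes), following that order in part. Of the 9 in bin 2 (41.7% to 46.6% GC) 8 were higher, and of the 14 in bin 4 (52.8% to 59.05% GC) 9 were lower and 5 higher. Of all genes in these bins 68.3% and 69.9% were called in either direction. Shares of all genes by direction within a bin were not computed, so the counts by direction have no background. In all, 20 of the 30 lay above the median of their own bin and 10 below it. PDHB, SLC16A3, PDHA1 and SLC2A3, with 44.3%, 64.5%, 46.4% and 45.8% GC, lay furthest above theirs, of which SLC16A3 did not pass the test. The part of GC content in any single difference was not tested. For H1p43 against H1p16 the same correlation was 0.12 for GC content and -0.01 for length.

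**Figure D3:**
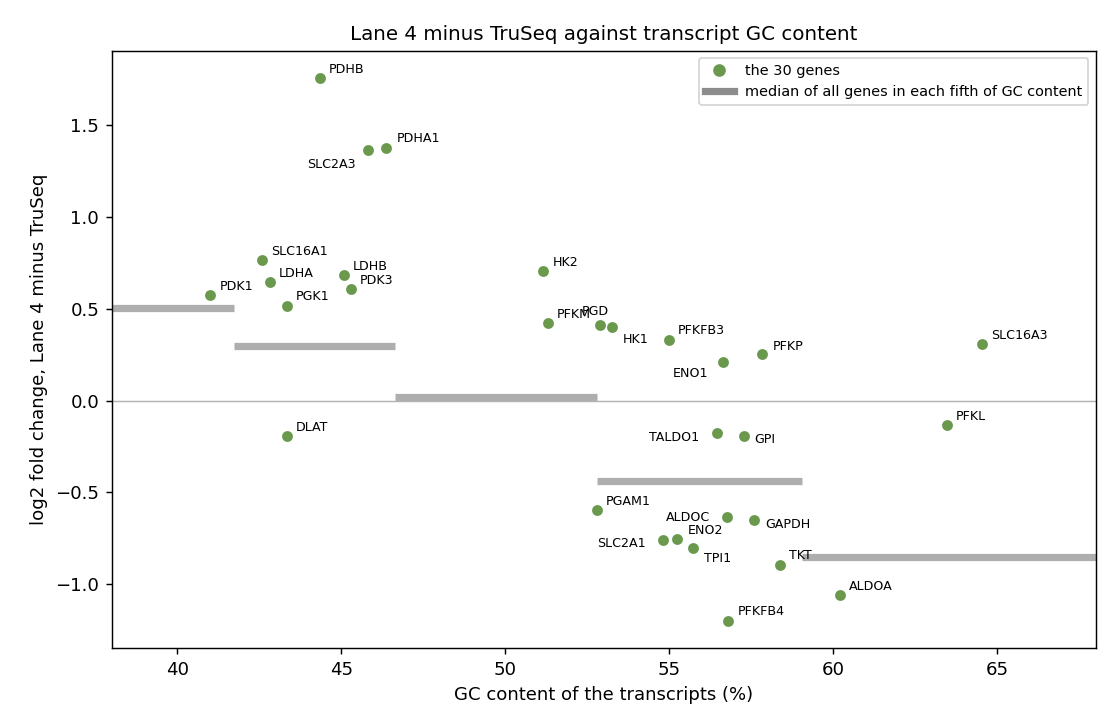
Log2 fold change of Lane 4 minus TruSeq (vertical) against the GC content of the transcripts in percent (horizontal) for the 30 genes; grey bars are the medians of all genes in each of 5 GC bins. Of the genes in the 2 lowest bins only DLAT, at -0.20, lies below 0, PDHB is highest at 1.76, and genes of higher GC content lie on both sides of 0.

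Both hexokinases were higher in Lane 4 and the glucose carriers diverged. SLC2A3 ranged from 919.8 to 1013 TPM (median 991) in Lane 4, above all 6 TruSeq libraries, whose highest was 446 TPM (1.36 ± 0.06, adjusted p = 3.08e-11, edgeR). SLC2A1 ranged from 106.7 to 125.95 TPM (median 116.7), below the TruSeq minimum of 178 TPM (-0.76 ± 0.10, adjusted p = 3.14e-06, edgeR). HK1 ranged from 295 to 330.4 TPM (median 318), above the TruSeq maximum of 254 TPM (0.40 ± 0.04). HK2 was higher by 0.71 ± 0.11.

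In upper glycolysis PFKFB4 fell from a TruSeq range of 5.43 to 7.04 TPM to a Lane 4 range of 1.82 to 4.42 TPM (median 2.15; -1.20 ± 0.20, adjusted p = 6.05e-05, edgeR), while PFKFB3 rose from 19.8 to 23.9 TPM to 24.5 to 27.9 TPM (median 26.1; 0.33 ± 0.08). PFKM and PFKP were higher by 0.42 ± 0.06 and 0.25 ± 0.06, with Lane 4 ranges of 88.2 to 107.1 TPM (median 94.04) and 122.2 to 140.6 TPM (median 130.4), above the highest TruSeq libraries at 83.2 and 116.1 TPM. PFKL ranged from 66.4 to 75.6 TPM (median 70.5) in Lane 4, overlapping H1p16 and below H1p43. Its decrease of -0.14 ± 0.06 (adjusted p = 0.0493, edgeR) was lost against H1p16 alone (-0.05 ± 0.06, adjusted p = 0.472), without any single H1p43 library (adjusted p from 0.0910 to 0.112) and without Lane4_38870_0169, Lane4_38872_0171 or Lane4_38874_0173 (0.0845, 0.0647 and 0.0572). It was also lost with RLE scaling (adjusted p = 0.0568, edgeR), on the TPM scale (0.0628, limma), with Lane 3 in place of Lane 4 (0.178) and on thinned counts (0.107). ALDOA, TPI1 and ALDOC were lower by 1.06 ± 0.08, 0.80 ± 0.07 and 0.63 ± 0.08 on the log2 scale. The decrease of GPI (-0.19 ± 0.07) was lost against H1p43 alone (-0.03 ± 0.05, adjusted p = 0.590, edgeR) and without any single H1p16 library (adjusted p from 0.0535 to 0.0618).

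In lower glycolysis ENO2 ranged from 37.8 to 49.2 TPM (median 43.6) in Lane 4, below all TruSeq libraries (-0.76 ± 0.13, adjusted p = 6.87e-05, edgeR). ENO1 ranged from 2409 to 2708 TPM (median 2490.5), above all TruSeq libraries, of which the highest had 2394 TPM (0.21 ± 0.06, adjusted p = 0.00833, edgeR). Against H1p16 alone the ENO1 increase was not called (0.07 ± 0.04, adjusted p = 0.118, edgeR). GAPDH and PGAM1 were lower by 0.65 ± 0.07 and 0.60 ± 0.05, and PGK1 was higher by 0.52 ± 0.06.

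Of the lactate genes, 3 of 4 were higher in Lane 4. SLC16A1 ranged from 574 to 632 TPM (median 605), above the TruSeq range of 359 to 376 TPM (0.76 ± 0.05, adjusted p = 4.02e-10, edgeR), and LDHA and LDHB were higher by 0.65 ± 0.12 and 0.68 ± 0.05. SLC16A3 ranged from 2.13 to 4.24 TPM (median 3.68) against 2.42 to 3.33 TPM in TruSeq, with overlap, and its log2 fold change of 0.31 ± 0.20 did not pass the test (adjusted p = 0.191, edgeR).

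PDHB ranged from 681 to 780.3 TPM (median 709) in Lane 4 against 205 to 223 TPM in TruSeq, a gap wider than any spread within a group (1.76 ± 0.05, adjusted p = 2.40e-13, edgeR). PDHA1 ranged from 158.8 to 178 TPM (median 171.1) against 63.3 to 69.3 TPM (1.38 ± 0.06). DLAT, of the same complex, did not follow: it ranged from 41.1 to 57.5 TPM (median 44.9) against 51.04 to 57.8 TPM, and its decrease of -0.20 ± 0.08 (adjusted p = 0.0379, edgeR) was lost without any single H1p16 library (adjusted p from 0.0716 to 0.0781), without Lane4_38869_0168, Lane4_38873_0172 or Lane4_38874_0173 (0.0640, 0.0514 and 0.0543), against H1p43 alone (adjusted p = 0.416) and on thinned counts (adjusted p = 0.0655). PDK1 was higher by 0.57 ± 0.10, and PDK3 by 0.61 ± 0.07 in counts but not in TPM (-0.04 ± 0.07, adjusted p = 0.647, limma). TKT ranged from 593 to 615 TPM (median 605), far under its TruSeq range of 1098 to 1186 TPM (-0.89 ± 0.04, adjusted p = 6.17e-12, edgeR). TALDO1 ranged from 303 to 314 TPM (median 306) against 338 to 374 TPM (-0.18 ± 0.05, adjusted p = 0.00416, edgeR), and PGD was higher by 0.41 ± 0.07. Counts thinned to a common total left 27 of the 30 genes called, 16 higher and 11 lower, beside 9711 of all 13534 genes tested.

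Isozyme shares, the percent of the summed TPM at a step that falls to a given gene, put these shifts on a per-length scale within each library. SLC2A3 made up 59.5% ± 1.052 of the SLC2A1 and SLC2A3 total in H1p16, 71.3% ± 0.17 in H1p43 and 89.2% ± 0.79 in Lane 4 (SD, n = 3, 3 and 6). LDHB made up 83.5% ± 0.12, 88.3% ± 0.09 and 86.04% ± 0.62 of lactate dehydrogenase, ENO2 2.39% ± 0.08, 4.31% ± 0.12 and 1.70% ± 0.14 of enolase, and HK2 14.2% ± 0.21, 10.5% ± 0.09 and 14.9% ± 0.94 of the hexokinases. PFKP made up 44.8% ± 0.19, 39.3% ± 0.70 and 43.9% ± 1.58 of phosphofructokinase. Between H1p43 and H1p16, 8 of 9 shares had ranges apart, SLC16A3 of the carriers being the exception; the exact two-sided permutation test of 3 against 3 cannot give a p below 0.1, and gave 0.1 for each of the 8.

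Between Lane 4 and TruSeq, 7 of 9 shares differed by the exact two-sided permutation test with Benjamini-Hochberg adjustment over the 9. SLC2A3 gained 23.8 percentage points (adjusted p = 0.0039), HK2 2.56 (adjusted p = 0.0417) and ALDOC 2.25 (adjusted p = 0.0039) by that exact test. The differences were -13.6 points for PFKFB4, -9.62 for PDK3 and -1.65 for ENO2 (exact adjusted p = 0.0039 each, from the smallest p that 6 against 6 can give), and -0.21 for SLC16A3 (exact adjusted p = 0.0097). PFKP (1.85 points, exact adjusted p = 0.239) and LDHB (0.16 points, exact adjusted p = 0.872) did not pass. Since H1p16 and H1p43 differ, LDHB in Lane 4 differed by 2.57 points from H1p16 and by -2.26 points from H1p43, and PFKP by -0.91 and 4.61 points. The SLC16A3 difference from H1p43 alone was -0.14 points (exact adjusted p = 0.0714), and with Lane 3 in place of Lane 4 it was -0.18 points (permutation adjusted p = 0.133). The HK2 difference from H1p16 alone did not pass the test (0.73 points, exact adjusted p = 0.402). On expected counts the PDK3 difference was 0.40 points (exact adjusted p = 0.898).

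**Figure D4:**
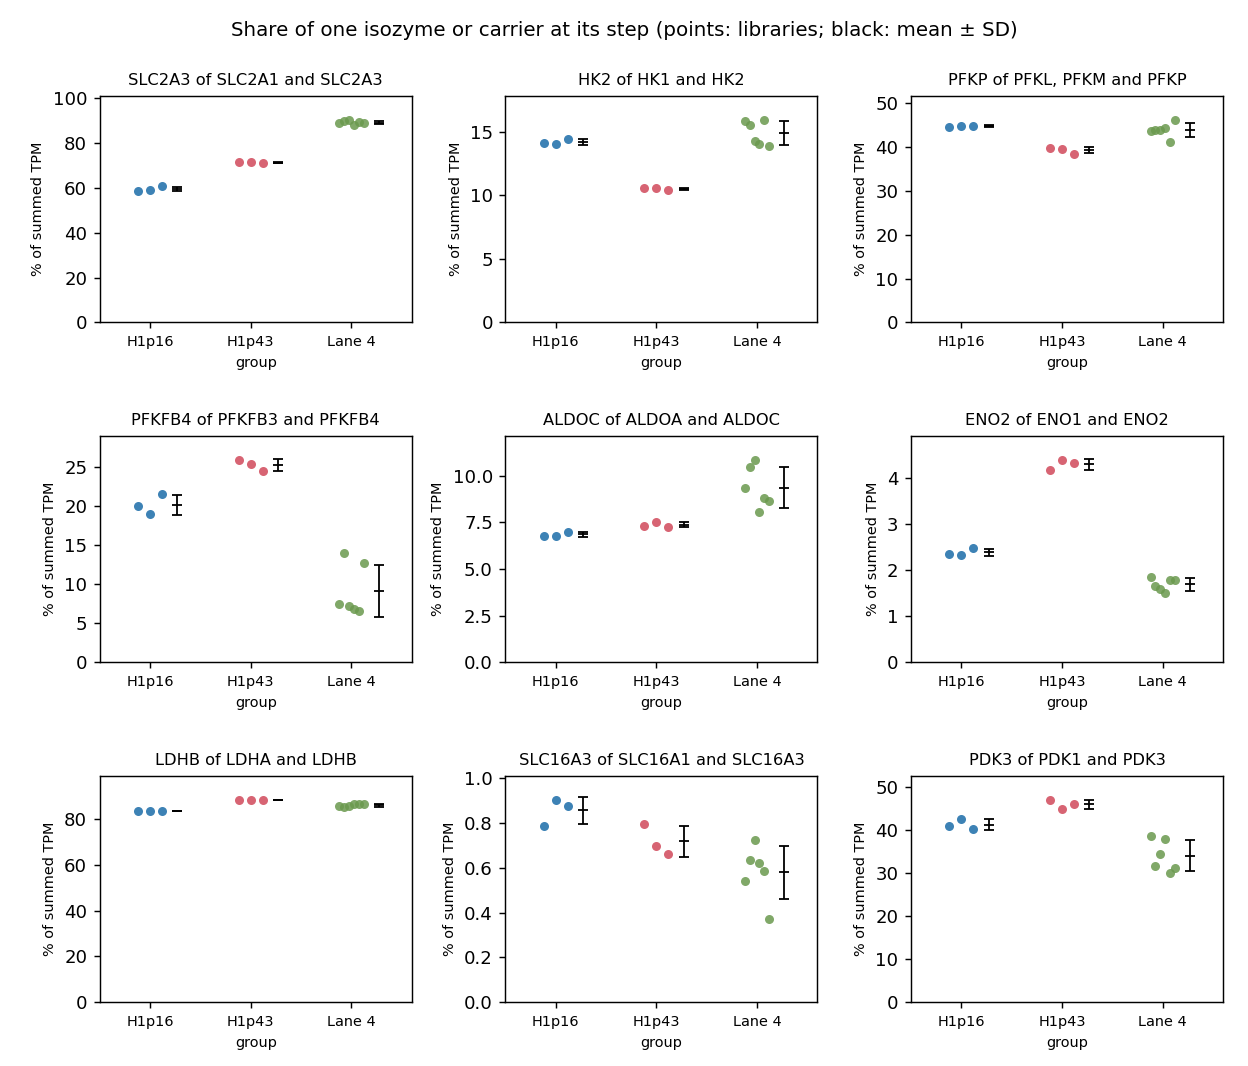
Share of the named isozyme or carrier in the summed TPM of its step (vertical, percent, from 0) in each H1p16, H1p43 and Lane 4 library; black marks are means ± SD. H1p16 and H1p43 are apart in 8 of 9 panels, and the SLC2A3 share climbs from 59.5% to 71.3% to 89.2%.

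Shares in the other lanes were given by the same measure and not tested. For the 95 libraries of Lane 1 the SLC2A3 share averaged 88.5% (SD 1.122) and the LDHB share 86.2% (SD 0.85). In Lanes 2 and 3 the SLC2A3 share averaged 88.3% and 88.4%. At Lane 1 depth the low genes limited the shares: PFKFB4, with 1 to 14 expected counts a library, made up 1.83% to 22.6% of its pair, and SLC16A3, with 0 to 10.8 expected counts, was at 0 in 6 of 95 libraries.

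Lanes 2, 3 and 4 were each compared with the same library numbers in Lane 1, to ask what depth did to the measured pathway. No gene of the 30 was called in edgeR: 0 of 28 tested in Lane 2 (0.0% of 10120 genes), 0 of 29 in Lane 3 (0.0% of 10871) and 0 of 30 in Lane 4 (0.0161% of 12419, 2 genes). At an unadjusted p below 0.05 there were 1, 2 and 1 of the 30 genes and 182 and 216 genes in Lanes 2 and 3, and 1.25% of genes in Lane 4, and DESeq2 and limma also called 0 of the 30 in each lane. In the fit blocked by number, 5 of 28, 8 of 29 and 3 of 30 had an unadjusted p below 0.05. Over all genes the shares were 6.36%, 7.97% and 5.01% (644, 866 and 622 genes). PFKFB4 and SLC16A3 fell under the count filter in Lane 2 and SLC16A3 in Lane 3. Largest in size were the differences of PFKP in Lane 2, ALDOC in Lane 3 and PFKFB4 in Lane 4, with 0.06, 0.10 and 0.26 on the log2 scale. After adjustment the blocked fit, which takes each library number as a block, called 0.257%, 0.405% and 0.105% of genes and 0, 1 and 0 of the 30; the 1 was GAPDH in Lane 3, higher by 0.04 ± 0.01 (adjusted p = 0.000222, edgeR). Within Lane 1, the 48 libraries whose number recurs in Lane 2 and the 47 others differed in 0 of 28 genes (0.0% of 9514 genes in edgeR, 576 of them at an unadjusted p below 0.05, 3 of the 30 among these; limma also called 0).

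Between library numbers the genes of the pathway varied by small amounts, as most of all genes did. Among the 48 numbers that Lanes 1 and 2 share, all 28 genes tested differed between numbers, in an F test of all number terms in edgeR with the lane as a term, where 91.3% of 10120 genes did. The median SD between numbers was 0.09 on the log2 scale for these genes and 0.14 for all genes. ENO1 had the highest ratio of SDs, with an SD between numbers of 0.08 against 0.02 within a number (adjusted p = 1.70e-41, edgeR). Its lowest and highest TPM were 2313 and 3056 among these Lane 1 libraries, 2386 and 3087 among those of Lane 2, and 8 of the 12 numbers highest in Lane 1 were among the 12 highest in Lane 2. For TPI1 these shared 10 of 12, over 475 to 789.6 TPM in Lane 1, and for GAPDH 9 of 12 over 3740.1 to 4846 TPM. LDHB had the lowest adjusted p (7.92e-47, edgeR), and its numbers shared 8 of 12. The SD within a number was above that between numbers for PDK1 (0.18 and 0.13) and ALDOC (0.17 and 0.09), which shared 8 and 7 of the 12 highest. The same held for PGK1, HK2, ENO2, DLAT, PFKFB3 and PDK3, and for PFKFB4 and SLC16A3, which were not tested. Median expected counts in Lanes 1 and 2 were 43 and 83 for ALDOC, against 2989 and 5721 for GAPDH. The part of counting noise in the scatter of PDK1 and ALDOC was not tested. ALDOA and PGAM1 were among those that shared 5 of 12, and PFKP shared the fewest, 4 of 12. How many would be shared by chance was not computed. PGK1 varied least, with an SD of 0.04 between numbers and 0.05 within a number. Whether a number marks the same library sequenced again is not given in the labels.

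**Figure D5:**
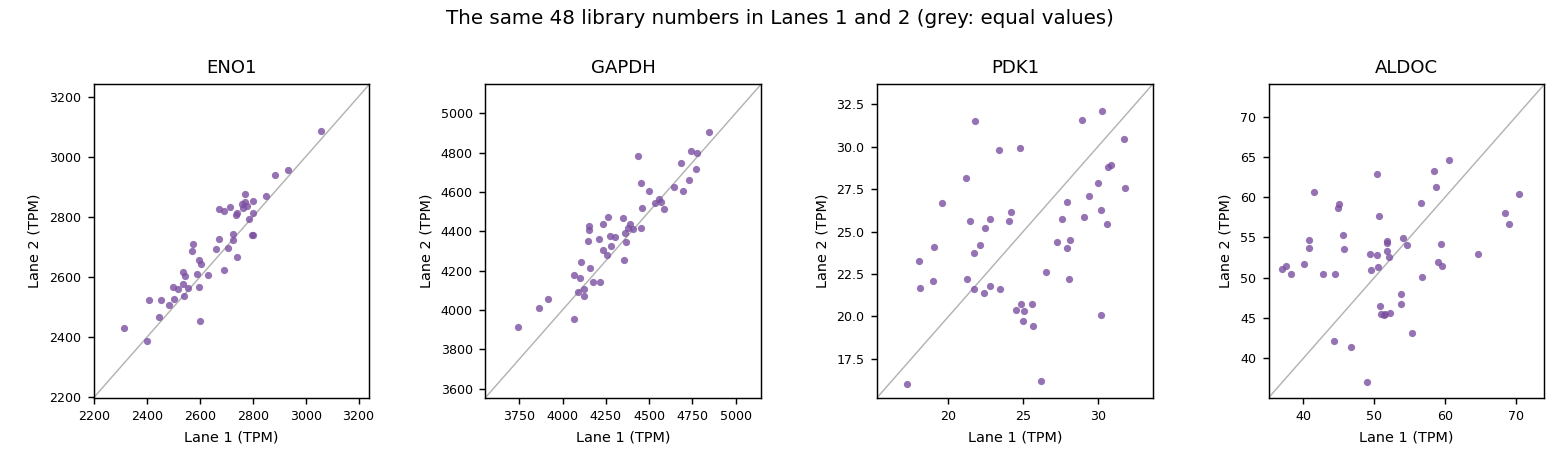
TPM of ENO1, GAPDH, PDK1 and ALDOC in Lane 2 (vertical) against Lane 1 (horizontal); each point is 1 of 48 library numbers and the grey line marks equal values. ENO1 and GAPDH lie along the line, while PDK1 and ALDOC scatter, with an SD within a number of 0.18 and 0.17 on the log2 scale against 0.02 for ENO1. Median expected counts in Lanes 1 and 2 were 43 and 83 for ALDOC and 2989 and 5721 for GAPDH.

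Of 8 pairs of genes followed over the 95 Lane 1 libraries, 1 passed the test, LDHA with LDHB. Their log2(TPM + 1) values had a Pearson r of 0.49 and a Spearman rho of 0.47 (permutation p = 1e-05 for both, the smallest 100000 permutations can give; adjusted p = 8e-05). Within the 48 libraries whose number recurs in Lane 2, r was 0.54, and within the 47 others 0.46. Without the 2 libraries farthest from the LDHA median r was 0.41 (permutation adjusted p = 0.00064). The other 7 pairs had r between -0.16 and 0.16, with adjusted permutation p from 0.308 upward; among them were LDHA with PGK1 (0.01) and LDHA with PDK1 (-0.16). Values in a library share its depth and its normalisation to a fixed sum.

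Other genes of the same pathways, 59 in the tables, showed no common direction in H1p43. Of 47 tested in edgeR, 20 rose and 19 fell (median log2 fold change 0.09), against 36.4% and 35.4% of all genes. PKM, the pyruvate kinase listed as PKM2, fell from 1315 ± 19.96 to 1039 ± 7.97 TPM (-0.45 ± 0.02, adjusted p = 1.14e-13, edgeR). PCK2, the mitochondrial phosphoenolpyruvate carboxykinase, rose from 76.1 ± 1.82 to 150.2 ± 3.84 TPM, and H6PD, the hexose-6-phosphate dehydrogenase of the endoplasmic reticulum, from 1.95 ± 0.09 to 4.91 ± 0.14 TPM (log2 fold changes 0.87 ± 0.03 and 1.22 ± 0.06). In Lane 4, 14 of 44 were higher and 21 lower (median -0.23), against 34.3% and 36.9% of all genes. BSG, the chaperone of the lactate carriers, was lower in Lane 4 at 394 ± 17.9 TPM against 939 ± 25.8 in TruSeq. DLD, the dihydrolipoamide dehydrogenase subunit of the pyruvate dehydrogenase complex, was higher at 159.2 ± 2.16 against 59.1 ± 2.55 TPM. PGM2L1, a glucose 1,6-bisphosphate synthase, and PKM were higher by 1.21 ± 0.05 and 0.86 ± 0.10 on the log2 scale.

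Of the 19 genes of the tricarboxylic acid cycle, which burns the acetyl-CoA from pyruvate, 9 rose and 7 fell in H1p43 (median 0.01). Over all genes 36.4% were called higher and 35.4% lower. The summed share of the 19 genes went from 0.213% ± 0.003 to 0.237% ± 0.001 of TPM. IDH2, a mitochondrial isocitrate dehydrogenase, and SDHA, the flavoprotein of succinate dehydrogenase, rose by 0.35 ± 0.04 and 0.28 ± 0.03, and DLST, of the oxoglutarate dehydrogenase complex, fell by 0.25 ± 0.03 on the log2 scale. In Lane 4, 13 of 19 were lower and 2 higher, against 36.9% and 34.3% of all genes, with a share of 0.159% ± 0.003 of TPM. SDHB, the iron-sulphur subunit of succinate dehydrogenase, MDH2, a malate dehydrogenase, and CS, the citrate synthase, were lower by 1.88 ± 0.09, 1.21 ± 0.05 and 1.09 ± 0.05. Of 86 cytosolic ribosomal protein genes 74 were also lower in Lane 4, against 36.9% of all genes.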

How the data were processed

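Gene-level TPM and RSEM expected counts of 179 libraries were used as deposited by the authors. Per the submitters' processing notes the tools were CASAVA 1.8.2, Bowtie 0.12.8 and RSEM 1.2.3, and the build was hg19; the annotation and the strand setting are not given in the sources used here. TPM, deposited by the authors, is scaled to a fixed sum per library. Expected counts, deposited by the authors, divide ambiguous reads between genes and were rounded to whole numbers. Counts were tested with edgeR 4.0.16 (filterByExpr, TMM scaling, quasi-likelihood F test, Benjamini-Hochberg adjustment) in R 4.3.3, on the samples of each comparison alone. Alternatives were DESeq2 1.42.0, other scaling, no filter, limma 3.58.1 on log2(TPM + 1) or log2(TPM + 0.1), keeping genes whose mean TPM reached 1, thinned counts and left-out libraries. The edgeR step was tested on simulated counts. Isozyme shares were compared by exact permutation in scipy 1.17.1. Transcript GC content and length came from GENCODE transcripts matched through RefSeq accessions, and promoters from RefSeq (GRCh38.p14); promoters matched 28 genes by symbol, not SLC2A3 or SLC16A1.

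The genes and lists were chosen with earlier results of these data known. Values by library, or the range and median for the 6 libraries of Lane 4, are given for the genes with the largest and smallest change in each arm and for isozyme partners that changed in opposite directions; of further lists up to 3 called genes with the lowest adjusted p are named, plus PKM, HIF1A and MYC; 1 further gene of that rule is not reported here. Libraries of the same number in Lanes 1 and 2, 3 or 4 deviated together (r from 0.20 to 0.58 over the pairs, each library closest to its own number), so blocked values are given. No library was left out. Depth per library is given with the groups. Low counts limit the precision of PFKFB4 and SLC16A3 in Lanes 1 to 3, of PFKFB4 also in Lane 4, and to a lesser degree that of genes such as ALDOC.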

Additional observations from a re-analysis of the deposited data

How the results depend on the processing

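In the comparison of H1p43 with H1p16 the number called of the 30 was 22 to 28 under other tools, scalings, filters and the replicate block. It was 27 to 29 with a library left out, and 2 at a fold of at least 1.5. Over all genes DESeq2 called 9339 of 19084, the fit without a filter 10686 of 17536 and limma on log2(TPM + 1) 9343 of 13029. With a library left out 9828 to 10470 of all genes were called, and at 1.5-fold 2957 of 14574. Signs reversed on log2(TPM + 1) and log2(TPM + 0.1), in that order, for PDK3 (-0.0506, -0.0540), HK1 (0.0763, 0.0765), LDHB (0.0532, 0.0532), PDHB (0.0182, 0.0182) and TKT (0.0541, 0.0541). For Lane 4 against TruSeq the number was 27 to 29 under every alternative tried but the 1.5-fold limit (17) and 27 to 29 with a library left out. Over all genes DESeq2 called 10410 of 19084, limma on log2(TPM + 1) 9644 of 12914 and the fit with Lane 1 in place of Lane 4 8950 of 10814. With a library left out 9493 to 9795 of all genes were called, and at 1.5-fold 6556 of 13827. PDK3 reversed on both TPM scales (-0.0367, -0.0396). Replicate numbers of TruSeq did not pair the libraries (r from 0.03 to 0.11), and with a replicate block 28 genes were called for H1p43, 5 higher and 23 lower, as without it. Within LM-Seq, the replicate block gave 1 called gene in Lane 3 and 0 in Lanes 2 and 4, and 0 were called with each number left out of Lane 4. Shares reversed for PFKP against H1p16 (-0.91 points), LDHB against H1p43 (-2.26) and PDK3 on expected counts (0.40). Of correlations below the threshold, SLC2A1 with SLC2A3 (-0.0409), HK1 with HK2 (-0.0529) and PFKFB3 with PFKFB4 (0.103) reversed within the numbers recurring in Lane 2, and LDHA with PGK1 (-0.00768) within the others. The cause of these changes was not tested.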

Other observations

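Genes known to be induced by hypoxia or by glucose flux, outside the pathway, moved in both directions. Of 24 tested in edgeR between H1p43 and H1p16, 9 rose and 4 fell (median log2 fold change -0.0016), against 36.4% and 35.4% of all genes. DDIT4, an inhibitor of mTOR signalling, rose from 16.6 ± 2.03 to 41.99 ± 1.52 TPM, and MXI1, an antagonist of MYC, from 4.70 ± 0.37 to 11.6 ± 0.18 TPM. ADM, the adrenomedullin precursor, fell from 126.95 ± 7.09 to 102.9 ± 2.06 TPM. In Lane 4 against TruSeq 10 were higher and 8 lower, against 34.3% and 36.9% of all genes. Among the higher was EGLN1, the oxygen-sensing prolyl hydroxylase, at 6.31 ± 0.56 against 2.65 ± 0.18 TPM. ARRDC4, an arrestin-like gene induced by glucose, and INSIG2, a regulator of sterol synthesis, were higher by 1.85 ± 0.14 and 1.49 ± 0.12 on the log2 scale.

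Of 16 regulators of the pathway, 10 fell and 3 rose in H1p43, against 35.4% and 36.4% of all genes. LIN28A, an RNA-binding protein of pluripotent cells, fell from 993 ± 14.7 to 752 ± 3.88 TPM, LIN28B, its relative, from 96.1 ± 2.87 to 67.9 ± 0.61 TPM and MYCN from 147.2 ± 8.01 to 98.8 ± 0.50 TPM. MYC fell by 0.29 ± 0.04 on the log2 scale, while HIF1A, the inducible subunit of the hypoxia factor, fell by 0.09 ± 0.02 in counts with TPM of 157.7 ± 1.45 and 159.8 ± 0.40. LIN28A is also among the pluripotent cell markers. In Lane 4, 4 of 15 were higher and 5 lower, against 34.3% and 36.9% of all genes. LIN28A measured 1844 ± 48.5 against 872.7 ± 132.01 TPM, HIF1A 197 ± 8.88 against 158.7 ± 1.48 TPM and MLX, a partner of the glucose-sensing factor, 21.8 ± 3.04 against 38.6 ± 4.09 TPM. MYC was not called in Lane 4 (-0.17 ± 0.08, adjusted p = 0.0522, edgeR).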
